A study of Mus musculus with 4 samples.

Results

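To examine which adhesion receptors peritoneal macrophages carry as RNA, and how IL-4 and loss of Trim24 alter them, 10 integrin subunit genes were followed in 4 RNA-sequencing libraries. The genes were matched by symbol through their NCBI gene IDs, a rule that itself holds no measured value although it was set with earlier results of these data known, and are 7 alpha subunits (Itgam, Itgax, Itgal, Itga4, Itga5, Itga6 and Itgav) and 3 beta subunits (Itgb1, Itgb2 and Itgb5). All 10 were listed in all 4 libraries, among 16403 gene IDs listed in any library. The cells were macrophages drawn into the peritoneal cavity of C57BL/6 mice aged 6 to 8 weeks by 4% thioglycolate, collected 4 days after the injection, left to adhere for 4 h and kept in medium with 0.5% serum. They came from wild-type (WT) mice or from mice with floxed Trim24 (also called TIF1a) and a Cre driven by the lysozyme M promoter, which deletes Trim24 in the myeloid lineage and leaves it in other cells. The groups were WT untreated, WT given mouse IL-4 at 20 ng/mL for 6 h, knockout untreated and knockout given the same IL-4, with 1 library each. How many mice went into a library is not given in the sources used here. With no replicates, every test on reads below compares libraries and not conditions, and no difference has a replicate check.

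Integrins are pairs of an alpha and a beta subunit that span the cell membrane, bind other cells or the extracellular matrix, and link to actin inside the cell. Itgb2 pairs in leukocytes with Itgam (CD11b) to form a receptor for complement fragments and fibrinogen, with Itgax (CD11c) to form a related receptor, and with Itgal (CD11a) to form a receptor for intercellular adhesion molecules. Itgb1 pairs with Itga5 to bind fibronectin, with Itga6 to bind laminin and with Itga4 to bind Vcam1 and fibronectin. Itgav pairs with Itgb1, Itgb5 or Itgb3 to bind vitronectin and other matrix proteins, and in phagocytes its receptors take part in the uptake of apoptotic cells. RNA levels of the subunits were measured here, not receptors on the cell surface.

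In GRCm38, the genes of the 3 alpha partners of Itgb2 lie near each other on chromosome 7, Itgal at chr7:127296139-127335137, Itgam at chr7:128062640-128118491 and Itgax at chr7:128129526-128150657. Another 3 lie on chromosome 2, Itga6 at chr2:71786886-71858427, Itga4 at chr2:79255426-79333114 and Itgav at chr2:83722303-83806917. Itga5 lies at chr15:103344286-103366791, Itgb1 at chr8:128685654-128733579, Itgb2 at chr10:77530329-77565708 and Itgb5 at chr16:33829665-33949338. These positions span whole genes, and the measured values sum over the transcripts of each gene.

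Promoter sequences of GRCm38.p6 from RefSeq were at hand for 7 of the 10 genes (Itgam, Itgax, Itga4, Itga5, Itgav, Itgb1 and Itgb5). The 250 bases before the start of the transcript in that table were searched on both strands for TTC and GAA with any 4 bases between them, the pattern that Stat6, the transcription factor activated by IL-4, is known to bind, and for GAGGAA, the core of sites of the myeloid factor PU.1. The first pattern reads the same on both strands and the second reads TTCCTC on the other strand. The Stat6 pattern was found in 5.85% of all 32851 promoter windows of this length and in 1 of the 7, that of Itgax. GAGGAA was found in 23.3% of all windows and in 4 of the 7 (Itgam, Itga5, Itgav and Itgb1). The windows of Itgax and Itga4, the genes with the highest IL-4 ratios below, and of Itgam, which neighbours Itgax, are given 5′ to 3′ with each match in capitals, and the window of Itga4 held neither pattern. A match says only that the letters are present.
Itgax, chr7:128129300-128129549, plus strand: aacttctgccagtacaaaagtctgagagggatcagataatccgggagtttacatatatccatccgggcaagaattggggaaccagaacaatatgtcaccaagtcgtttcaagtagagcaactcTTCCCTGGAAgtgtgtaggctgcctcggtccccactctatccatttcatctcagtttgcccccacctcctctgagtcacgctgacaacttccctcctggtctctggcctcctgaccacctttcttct
Itgam, chr7:128062390-128062639, plus strand: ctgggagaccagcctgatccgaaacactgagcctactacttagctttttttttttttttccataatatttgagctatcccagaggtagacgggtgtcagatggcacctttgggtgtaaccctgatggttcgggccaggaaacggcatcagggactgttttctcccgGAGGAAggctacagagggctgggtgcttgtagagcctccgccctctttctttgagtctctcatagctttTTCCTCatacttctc
Itga4, chr2:79255176-79255425, plus strand: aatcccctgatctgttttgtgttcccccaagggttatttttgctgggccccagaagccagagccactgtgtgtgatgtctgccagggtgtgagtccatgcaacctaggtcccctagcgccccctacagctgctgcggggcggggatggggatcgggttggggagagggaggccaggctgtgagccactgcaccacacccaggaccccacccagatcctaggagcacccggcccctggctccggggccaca
The TTCCCTGGAA of the Itgax window starts 127 bases before the transcript start used for that window. The matches of the Itgam window start 84 and 15 bases before the transcript start of Itgam. The Itgax window ends at chr7:128129549, past the start of the gene span given above, chr7:128129526. The Itgav window, chr2:83724147-83724396, lies inside the gene span given above, which starts at chr2:83722303. The windows of Itgax and Itgav are therefore upstream of the transcript used, not of the whole gene span.

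The libraries held 11026033 to 11250099 expected reads, so that 3 reads, the smallest count taken as detectable, correspond to 0.267 to 0.272 CPM. Trim24 was listed at 2.55 FPKM (reads scaled to transcript length and library size) in untreated WT cells, 1.48 in WT with IL-4, 0.06 in the untreated knockout and 0.14 in the knockout with IL-4, as the labels require. All 7 macrophage markers had reads in every library. Their summed level ran from 8260 to 14797 FPKM and was lower in the knockout, where most of the difference lay in Lyz2, the gene that carries the Cre. Without Lyz2 the sum was 3508, 3931, 3650 and 3498 FPKM in the order WT untreated, WT with IL-4, knockout untreated and knockout with IL-4, which is the order used for every set of 4 values below. Neutrophil markers, 3 of 8 with a read, summed to 5.25 to 8.83 FPKM, and S100a9, Ly6g, Camp, Ngp and Retnlg were at 0 in all libraries. S100a8 carried almost all of this sum, which without it was 0.07, 0.10, 0.36 and 0.27 FPKM. Siglecf likewise carried most of the eosinophil sum given next. The summed levels were 4.08 to 6.52 FPKM for B cells (4 of 4 markers with a read), 1.14 to 2.49 for T cells (5 of 5), 3.58 to 8.96 for mast cells (4 of 4), 1.06 to 2.04 for eosinophils (3 of 4, Epx at 0) and 0.770 to 1.21 for dendritic cells (4 of 4). They were 1.83 to 4.06 FPKM for mesothelium (4 of 4), 23.3 to 45.8 for fibroblasts (5 of 5), 19.5 to 21.2 for platelets (2 of 4, Ppbp and Gp9 at 0, and Pf4 almost all of the sum) and 2.57 to 4.93 for resident large peritoneal macrophages (4 of 4). Intervals below express counting error alone, as each group has 1 library. Reads that carry no molecular identifier may be copies of 1 molecule, so the intervals may be too narrow even for counting error.

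The beta subunit of the leukocyte receptors, Itgb2, dominated. FPKM is per transcript length, so the levels of different genes can be compared. Itgb2 had the highest level of the 10 genes in every library, at 811, 786, 851 and 796 FPKM, and Itgb1 the next, at 159, 201, 157 and 209 FPKM. Both beta subunits were thus above every alpha subunit they pair with. Itgam was listed at 68.0, 70.5, 76.5 and 98.3 FPKM and Itgax at 44.7, 77.2, 54.9 and 97.2 FPKM. Itgax was the lower of these neighbours in both untreated libraries, the higher in WT with IL-4, and within counting error of Itgam in the knockout with IL-4 (95% Wilson intervals, 94.4 to 100 and 95.6 to 101 FPKM). Itgb5 was listed at 59.3, 45.4, 66.4 and 49.2 FPKM, with the IL-4 libraries below the untreated ones. Itga5 followed at 36.6, 33.9, 38.0 and 36.9 FPKM, the narrowest band among the alpha subunits. Itgav was listed at 12.1, 12.4, 11.4 and 16.9 FPKM, with the knockout given IL-4 above the rest.

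The other 3 alpha subunits had low levels. Itga4 was listed at 3.93, 5.63, 3.65 and 6.30 FPKM, and its IL-4 libraries lay above its untreated ones. Itga6 was listed at 4.82, 2.96, 5.97 and 4.37 FPKM and Itgal at 5.35, 3.68, 4.76 and 4.04 FPKM, each lowest with IL-4 in WT. The order of the 10 genes was separated beyond counting error except among these 3 genes and at the top of the alpha subunits. The 95% Wilson intervals overlapped for the neighbours Itgal and Itga6 and for Itga6 and Itga4 in untreated WT cells, for Itgal and Itga6 in WT with IL-4, and for Itgam and Itgax and for Itga6 and Itgal in the knockout with IL-4. In the untreated knockout no neighbours overlapped. These low values rested on 203 to 693 expected reads in a library, while those of Itgb2 rested on 25234 to 26991. Expected counts were not whole for Itgam and Itga4 in 4 libraries and for Itgax in 1, which shows reads shared with other genes, and were whole for the other 7.

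**Figure D1:**
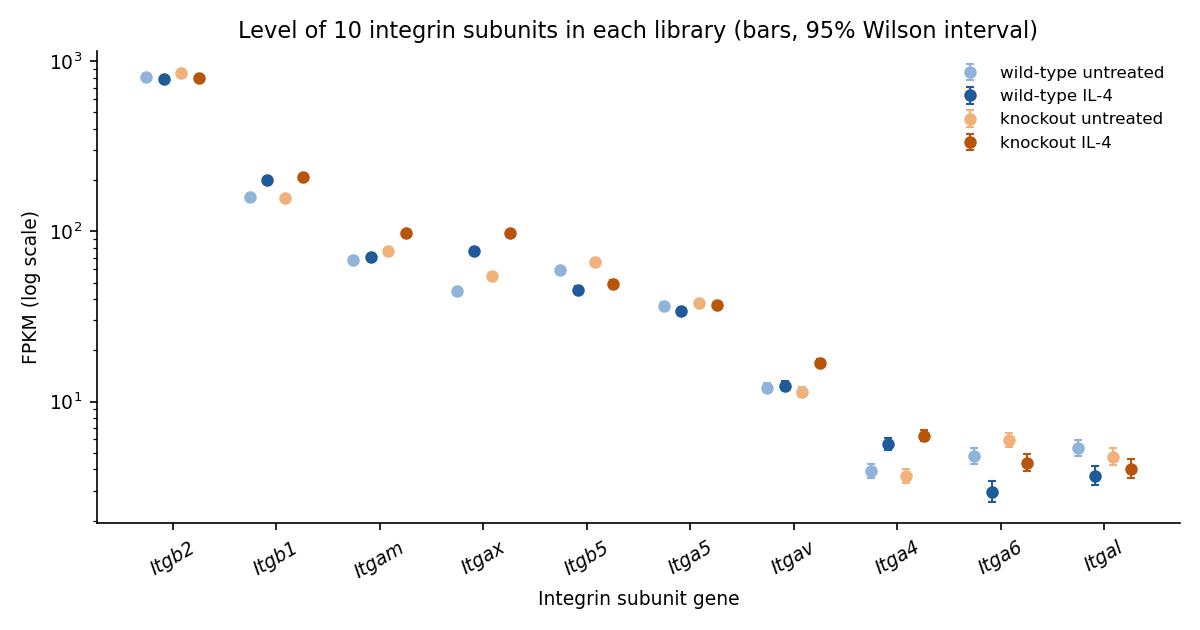
Level of each of the 10 integrin subunits in FPKM (log axis) in the 4 libraries. Points are single libraries, bars are 95% Wilson intervals for counting error, and genes are ordered by mean level, from Itgb2 (786 to 851 FPKM) to the 3 genes below 7 FPKM.

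The effect of IL-4 on the subunits was then examined in each genotype. In WT macrophages Itgax rose with IL-4, from 44.7 to 77.2 FPKM, and Itga6 fell, from 4.82 to 2.96 FPKM. In knockout macrophages Itgax rose from 54.9 to 97.2 FPKM and Itga4 from 3.65 to 6.30 FPKM. In bulk RNA a change in the share of cells and a change of RNA per cell cannot be told apart. A gene was called at a fold above 1.5 on the log2(FPKM + 0.1) scale with an adjusted p under 0.05 (Fisher's exact test, two-sided). By this rule 1 of the 10 was called higher and 1 lower in WT, where 4.91% of 15593 genes were called higher and 7.88% lower. For knockout cells the counts were 2 higher and none lower, where 5.29% of 15738 genes were called higher and 4.03% lower. When only genes averaging 1 FPKM or more were considered, which all 10 do, 15.5% were called in either direction in WT and 11.8% in the knockout, so the number called among the integrin subunits is near that of other expressed genes. The Fisher test knows counting error only. edgeR's exact test was therefore also run with an assumed coefficient of variation between libraries of a condition. At 0.1 the counts stayed at 1 higher and 1 lower in WT and 2 higher in the knockout. At 0.2 no member was called in either genotype. The share of all genes called at these settings was not counted.

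The log2 ratio of an IL-4 library to its untreated one also depended on transcript length. Spearman's rho of ratio with length, taken across 10443 genes, was -0.372 in WT and -0.109 in the knockout, a description across genes of the same libraries. All 10 subunits have transcripts longer than the median of those genes, 2732 bases, and their own median was 4560 bases. Values are therefore given with a smooth curve of the ratio over length subtracted as well, and where this ends a call it is said beside the gene. After subtraction the calls in WT made up 5.19% (higher) and 5.24% (lower) of genes, and those in the knockout 5.16% and 4.05%. The source of the trend was not tested.

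Among the alpha partners of Itgb2, Itgax had a log2 ratio of 0.79 ± 0.04 in WT (SE, counting error; Fisher's exact test, adjusted p = 2.1e-86) and 0.82 ± 0.04 in the knockout (adjusted p = 5.3e-116), and 0.89 and 0.83 with the trend removed. The 4 dendritic cell markers, cells that also carry CD11c, summed to 0.770, 0.990, 1.13 and 1.21 FPKM, and their part in the Itgax ratio was not tested. Itgam did not pass 1.5-fold. Its log2 ratio was 0.05 ± 0.03 in WT (Fisher's exact test, adjusted p = 0.270) and 0.36 ± 0.03 in the knockout (adjusted p = 3.8e-31). Subtraction of the trend turned these into 0.23 and 0.39. Itgal had ratios of -0.53 ± 0.13 in WT (Fisher's exact test, adjusted p = 0.000114) and -0.23 ± 0.13 in the knockout (adjusted p = 0.202), under the fold threshold in each. Itgb2 itself had ratios of -0.05 ± 0.01 and -0.10 ± 0.01, the narrowest of the 10 genes as it had the most reads. Of the receptors that share Itgb2, then, the CD11c subunit was the one called.

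Among the alpha partners of Itgb1, Itga4 had a log2 ratio of 0.51 ± 0.09 in WT (Fisher's exact test, adjusted p = 5.4e-08), under the fold threshold, and 0.77 ± 0.09 in the knockout (adjusted p = 1.4e-17). Its transcripts, of 9833 bases, are the longest of the 10, and with the trend removed it was called in both genotypes, at 1.03 in WT and 0.92 in the knockout. Itga6, the laminin receptor subunit, had ratios of -0.69 ± 0.13 in WT (Fisher's exact test, adjusted p = 3.5e-07) and -0.44 ± 0.11 in the knockout (adjusted p = 0.000333). Its transcripts measure 6018 bases, and with the trend removed the WT ratio was -0.38 and no longer called. Itga5, the fibronectin receptor subunit, had ratios of -0.11 ± 0.05 and -0.04 ± 0.05 with adjusted p of 0.0774 and 0.650 by Fisher's exact test, and 95% counting intervals of -0.20 to -0.01 and -0.14 to 0.05. Itgb1 was higher with IL-4 by 0.34 ± 0.02 in WT and 0.41 ± 0.02 in the knockout, many SEs from 0 but under 1.5-fold.

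Itgav had a log2 ratio of 0.04 ± 0.07 in WT (Fisher's exact test, adjusted p = 0.768) and 0.57 ± 0.06 in the knockout (adjusted p = 4.7e-19), just under the threshold. Without the trend the ratios were 0.41 and 0.66, and the latter was called. Its partner Itgb5 was lower with IL-4 in both, by log2 ratios of -0.39 ± 0.05 in WT (Fisher's exact test, adjusted p = 1.5e-15) and -0.43 ± 0.04 in the knockout (adjusted p = 4.8e-21), under 1.5-fold. Over the 10 genes the median log2 ratio was -0.01 in WT and 0.16 in the knockout, against -0.01 and 0.01 over the 10443 genes. With the trend removed the medians of the 10 were 0.14 and 0.19 against 0.01 and 0.01. Of the 10, 5 were above 0 and 5 below in each genotype.

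**Figure D2:**
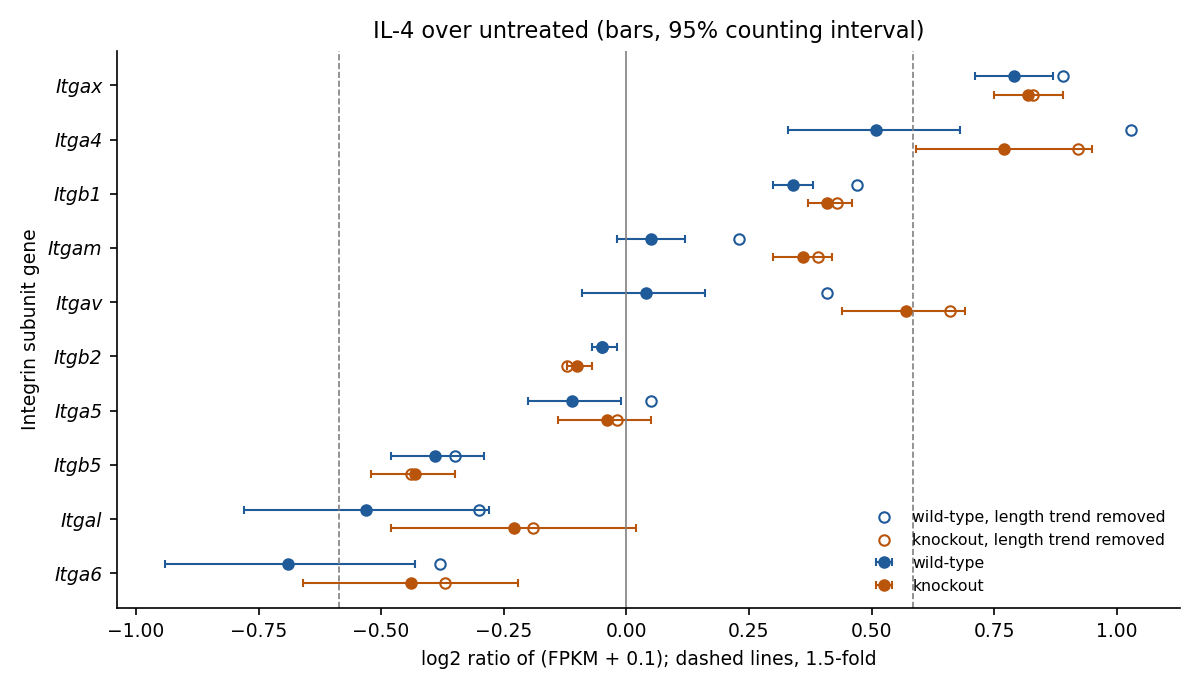
log2 ratio of the IL-4 library to the untreated library for each integrin subunit, in WT and knockout macrophages. Filled points are values as deposited with 95% counting intervals, open points have the trend over transcript length removed, and dashed lines mark 1.5-fold. Itgax lies beyond 1.5-fold in each genotype by either value, and Itga4 moves from 0.51 to 1.03 in WT on removal of the trend.

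Whether the IL-4 response of a subunit differed between genotypes was tested by Zelen's exact test on the reads of all 4 libraries, and the difference of log2 responses, knockout minus WT, was taken on log2 CPM with 0.5 reads added. None of the 10 passed 1.5-fold, where 1.87% of 14960 genes were called higher and 0.294% lower. Irrespective of size, 2 subunits had an adjusted p under 0.05 with a difference above 0 and 1 with a difference below 0. Of all genes, 6.56% and 2.77% did. Such counts grow with read depth, and the percentages include genes with few reads. Once the length trend was subtracted these counts were 1 and 1, where the shares of genes were 1.77% and 1.89%. Itgav responded more in the knockout by 0.53 ± 0.09 (95% counting interval, 0.36 to 0.71; Zelen's exact test, adjusted p = 1.9e-07). Itgam responded more by 0.31 ± 0.05 (0.22 to 0.40; Zelen's exact test, adjusted p = 1.1e-09). Itgb2 differed by -0.05 ± 0.02 (Zelen's exact test, adjusted p = 0.0446). Fibroblast markers summed to 45.8 and 38.9 FPKM without and with IL-4 in WT, against 23.3 and 43.1 FPKM in the knockout, and their part in these differences was not tested. With the trend removed, the difference was 0.26 for Itgav (adjusted p = 0.0984 by Zelen's exact test), 0.16 for Itgam (adjusted p = 0.0199) and -0.07 for Itgb2 (adjusted p = 0.0121). After this step the share of genes called was 0.481% higher and 0.187% lower. For Itgax the difference was 0.04 with a 95% counting interval of -0.07 to 0.14 and for Itga4 0.27 with an interval of 0.02 to 0.52 (Zelen's exact test, adjusted p of 0.882 and 0.229). The remaining 5 genes had adjusted p of 0.154 to 0.850 by Zelen's exact test and differences between -0.05 and 0.30.

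To ask how loss of Trim24 affects the subunits, knockout and WT libraries were compared at each treatment. These comparisons use the same libraries as the IL-4 comparisons and are not independent of them. None of the 10 was called in either. Without IL-4 the knockout exceeded WT by this rule in 0.839% of 15623 genes and lay below it in 0.742%, or in 0.819% and 0.755% once the trend was subtracted. At an adjusted p under 0.05 of any size (Fisher's exact test), 4 subunits lay above 0 without IL-4 and none below. Of all genes, 3.66% lay above and 2.97% below. Such counts grow with read depth, and these percentages cover every gene with a read, however few. The 4 subunits had 2003 to 26991 expected reads without IL-4. Subtraction of the trend left 4 and none, with 3.66% and 2.54% of genes. With IL-4 the shares were 3.05% and 0.764% of 15573 genes, or 1.40% and 0.629% once the trend was subtracted. At an adjusted p under 0.05 of any size 5 subunits lay above 0 with IL-4 and none below, where 12.1% of genes lay above and 7.78% below. Subtraction of the trend left 2 above and 1 below, with 5.93% and 5.25% of genes. None was called at coefficients of variation of 0.1, 0.2 or 0.4 in edgeR's exact test, but none could have been. Those settings change the p-value and not the ratio. The largest fold between genotypes, that of Itga6 with IL-4, was 1.46, under the threshold of 1.5.

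Without IL-4, Itgax had a log2 ratio of knockout to WT of 0.30 ± 0.04 (Fisher's exact test, adjusted p = 7.6e-10), Itgam of 0.17 ± 0.03 (adjusted p = 2.0e-05), Itgb5 of 0.16 ± 0.04 (adjusted p = 0.00364) and Itgb2 of 0.07 ± 0.01 (adjusted p = 3.3e-06). For the other 6 the adjusted p ran from 0.0591 for Itga6, at 0.30 ± 0.11, to 0.851 for Itgb1, at -0.02 ± 0.02 (Fisher's exact test). In the untreated knockout fibroblast markers summed to 23.3 FPKM against 45.8 in untreated WT and mast cell markers to 8.96 against 4.58, and the part of either in these ratios was not tested. After subtraction of the trend the Itgax ratio stayed at 0.30 and that of Itgam was 0.16.

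With IL-4 the log2 ratios of the 10 subunits lay above 0, by 0.02 for Itgb2, whose sign turned with TMM scaling, to 0.55, where 51.8% of the 10443 genes lay above 0. Itga6 had the highest log2 ratio, 0.55 ± 0.13 (Fisher's exact test, adjusted p = 0.000250), followed by Itgam at 0.48 ± 0.03 (adjusted p = 5.1e-52), Itgav at 0.45 ± 0.06 (adjusted p = 2.5e-12) and Itgax at 0.33 ± 0.03 (adjusted p = 1.8e-22). Itgb1 had a ratio of 0.06 ± 0.02 (adjusted p = 0.0367 by Fisher's exact test). The other 5 lay between 0.02 and 0.16 with adjusted p of 0.0611 to 0.645 by that test. In this comparison the log2 ratio followed transcript length most closely, with a rho of 0.518 over 10443 genes, against 0.129 without IL-4. With the trend removed 6 of the 10 were above 0 and 4 below, and 49.6% of the genes were above 0. Itgam kept a ratio of 0.32 (exact binomial test, adjusted p = 3.5e-23) and Itgax one of 0.24 (adjusted p = 2.5e-11). Itga6, at 0.29, had an adjusted p of 0.145 by the exact binomial test, and Itgav, at 0.13, one of 0.181. Itga4 changed sign to -0.29 (exact binomial test, adjusted p = 0.00383), and Itgal, Itga5 and Itgb1 also changed sign. Over the 10 genes the median ratio was 0.15 against 0.01 over all genes, and 0.05 with the trend removed. Without IL-4 it was 0.06 against -0.01, and 0.07 with the trend removed.

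**Figure D3:**
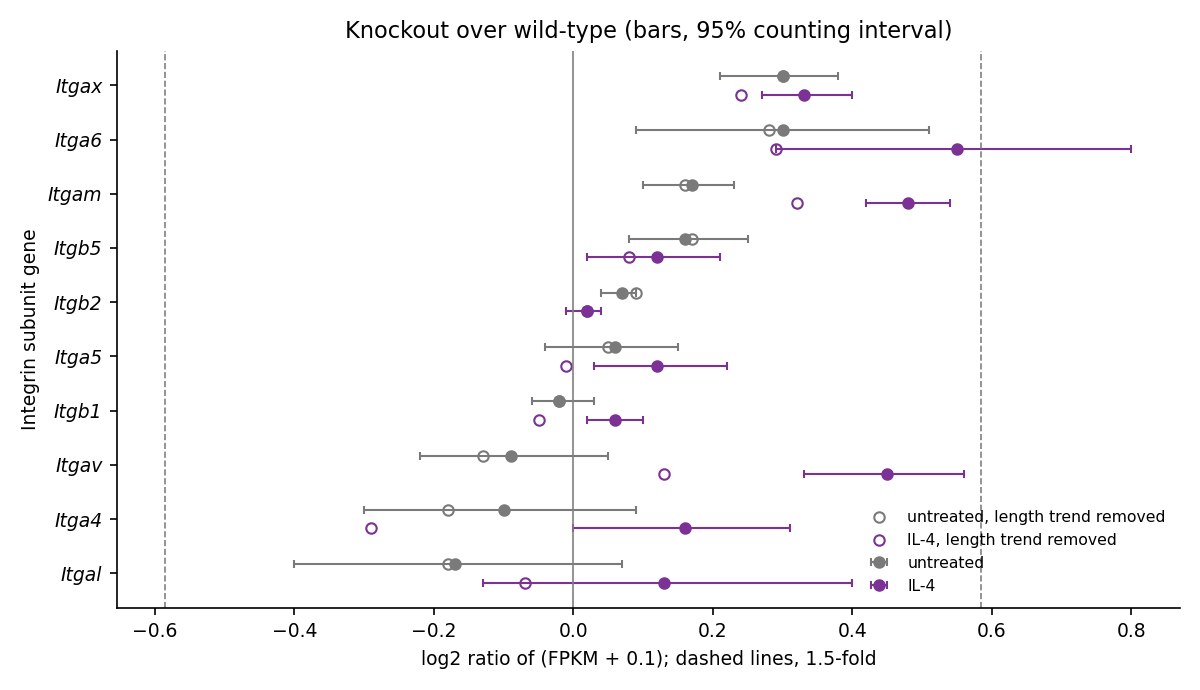
log2 ratio of knockout to WT for each integrin subunit, untreated and with IL-4. Filled points carry 95% counting intervals, open points have the trend over transcript length removed, and dashed lines mark 1.5-fold. No point lies beyond a dashed line, and removal of the trend moves the IL-4 values of Itga4 (0.16 to -0.29) and Itgav (0.45 to 0.13) furthest.

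**Figure D4:**
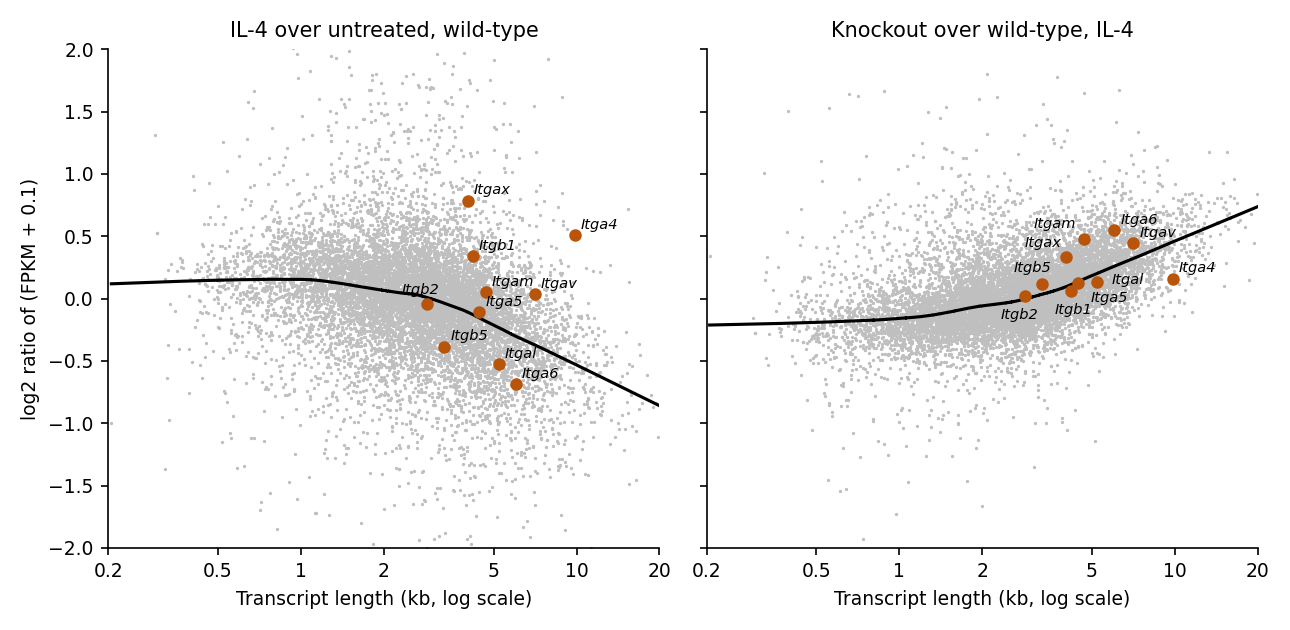
log2 ratio against transcript length in kilobases (log axis) for 10443 genes (grey), with the smooth curve over length (line) and the 10 integrin subunits (orange), for IL-4 in WT (left) and for knockout over WT with IL-4 (right). Genes beyond a log2 ratio of 2 (119 and 19) and 1 gene longer than 20 kb are not shown. Itgax and Itga4 lie above the curve on the left, and Itga4 lies below it on the right.

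A model with additive terms for IL-4 and genotype was then fitted to the 4 libraries at once in edgeR, which leaves 1 residual degree of freedom and treats any difference between the responses as noise. By its quasi-likelihood test (Benjamini-Hochberg adjusted over the genes fitted), 3 of the 10 were called higher with IL-4, where 12.0% of 11791 genes were. They were Itgax (log2 change 0.82, adjusted p = 5.9e-06), Itga4 (0.67, adjusted p = 0.000324) and Itgb1 (0.39, adjusted p = 0.00406). Called lower were also 3, where 13.3% of genes were, namely Itga6 (-0.56, adjusted p = 0.00270), Itgb5 (-0.40, adjusted p = 0.00363) and Itgal (-0.38, adjusted p = 0.0364). With the length trend as an offset, 17.9% of genes were called higher and 15.2% lower. Itgam (0.32) and Itgav (0.55) were then also called higher, and Itgal, at -0.24, was not called (edgeR, adjusted p = 0.0814). DESeq2 called 4 of the 10, without Itgal and Itga6. The share of all genes that DESeq2 called, here or for genotype below, was not counted.

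For genotype none of the 10 was called by edgeR, against 1.29% (higher in the knockout) and 0.373% (lower) of all genes fitted, and DESeq2 called none. At an unadjusted p under 0.05, 3 were higher by edgeR and none lower, where 9.42% of genes were higher and 4.83% lower. These were Itgax (0.32, adjusted p = 0.0911), Itga6 (0.43, adjusted p = 0.0979) and Itgam (0.33, adjusted p = 0.108) by edgeR's quasi-likelihood test. With the length trend as an offset the shares were 3.38% and 1.91%, and Itgax (0.27, edgeR, adjusted p = 0.00532) and Itgam (0.24, adjusted p = 0.0137) were called.

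Since a receptor needs both of its subunits, the level of each alpha subunit was set against that of its beta partner in the same library, as a description with no test. Summed over Itgam, Itgax and Itgal, the alpha partners of Itgb2 came to 14.6%, 19.3%, 16.0% and 25.1% of the Itgb2 level, so Itgb2 RNA exceeded that of its partners in every library. Itgam made up 57.6%, 46.6%, 56.2% and 49.3% of this sum and Itgax 37.9%, 51.0%, 40.3% and 48.7%. Itgal made up 4.53%, 2.43%, 3.50% and 2.02%. The partner with the largest share was thus Itgam without IL-4, Itgax in WT with IL-4, and Itgam by a small margin in the knockout with IL-4. The ratio of Itgax to Itgb2 was 0.0551, 0.0982, 0.0645 and 0.122, a log2 change with IL-4 of 0.83 ± 0.04 in WT and 0.92 ± 0.04 in the knockout (counting SE). The ratio of Itgam to Itgb2 was 0.0839, 0.0897, 0.0899 and 0.123. Removal of the length trend moved the Itgam and Itgax shares by little, to 49.1% and 48.9% in the knockout with IL-4.

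Among the alpha subunits that pair with Itgb1, Itga5 made up 63.7%, 61.7%, 64.4% and 57.2% of the summed level and Itgav 21.1%, 22.6%, 19.3% and 26.3%. Itga4 made up 6.84%, 10.3%, 6.18% and 9.76%, more with IL-4, and Itga6 8.39%, 5.39%, 10.1% and 6.77%, less with IL-4. Their sum was 36.2%, 27.3%, 37.6% and 30.9% of the Itgb1 level, lower with IL-4 as Itgb1 was higher. The ratio of Itga6 to Itgb1 was 0.0304, 0.0147, 0.0381 and 0.0209, which gives log2 changes with IL-4 of -1.04 ± 0.13 in WT and -0.86 ± 0.11 in the knockout, and -0.87 and -0.81 with the trend removed. Itga5 over Itgb1 changed by -0.45 ± 0.05 and -0.46 ± 0.05. Itgav over Itgb5 was 0.204, 0.274, 0.172 and 0.345, with log2 changes of 0.42 ± 0.08 in WT and 1.0 ± 0.08 in the knockout, and 0.76 and 1.11 with the trend removed. Itgav and Itga4 also pair with other beta subunits, so these shares are of RNA and not of receptors.

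**Figure D5:**
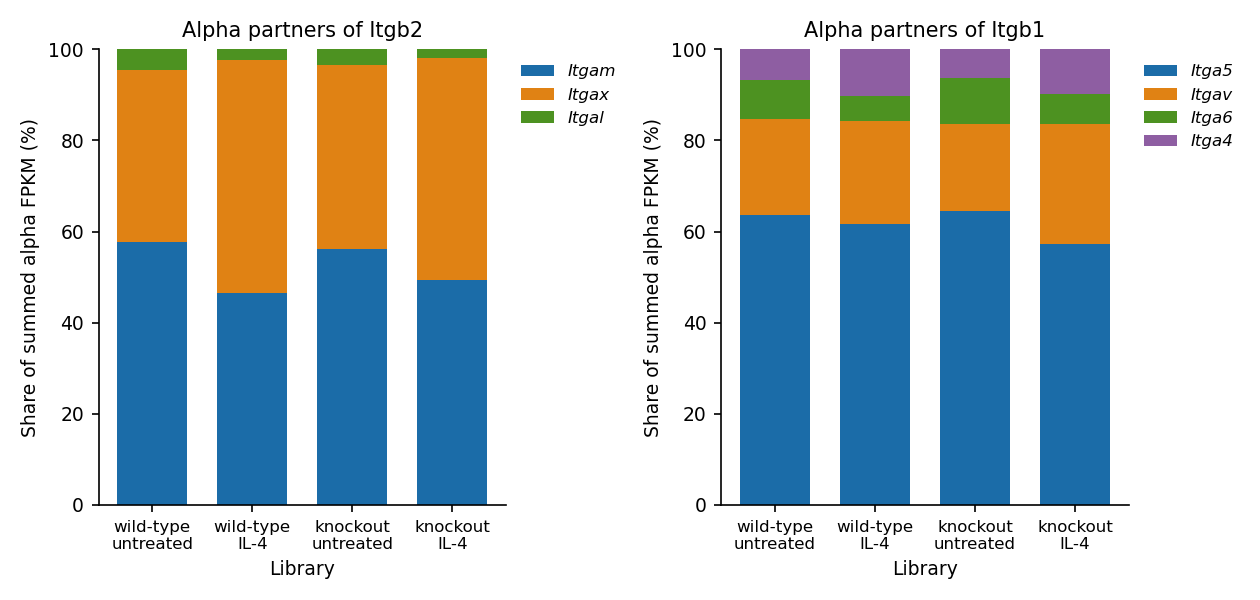
Share of each alpha subunit in the summed FPKM of the alpha partners of Itgb2 (left) and of Itgb1 (right) in each library, as stacked bars from 0 to 100%, with no error shown as each bar is 1 library. The Itgax share is 37.9% and 40.3% without IL-4 and 51.0% and 48.7% with it.

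The genes whose pattern over the 4 libraries was most like that of Itgax were Ube2l6, Tmem144 and Gramd4, with distances of 0.0838, 0.0842 and 0.108 on the log2 scale among 7456 genes of at least 5 FPKM. Ube2l6, a conjugating enzyme of the ubiquitin-like protein Isg15, was listed at 32.7, 52.0, 38.7 and 68.2 FPKM. Those most like Itga6 were Zfp217, Map3k1 and Gm45927, with distances of 0.0417, 0.0491 and 0.0627 among 7457 genes. Map3k1, a kinase upstream of Jnk, was listed at 15.8 and 19.9 FPKM in the untreated libraries and at no more than 14.1 FPKM in those with IL-4. Likeness here rests on 4 values a gene.

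Of 17 further integrin subunits, 15 had a read and 3 a mean of at least 0.5 FPKM. Itgb3, which pairs with Itgav, rose with IL-4 in both genotypes, from 4.49 to 10.9 FPKM in WT (log2 ratio 1.26, Fisher's exact test, adjusted p = 7.7e-39) and from 4.90 to 13.6 FPKM in the knockout (1.45, adjusted p = 1.4e-59). Without the trend its ratios were 1.54 and 1.51. Itgb7, which pairs with Itga4 in lymphocytes, was listed at 67.2, 53.0, 61.6 and 52.0 FPKM, a level about that of Itgb5 and above Itga4 in each library. It had IL-4 ratios of -0.34 and -0.24, under 1.5-fold. Itga9 was listed at 0.640 to 0.840 FPKM. Itgad, the remaining alpha partner of Itgb2, was at 0 except for 0.0300 FPKM in the untreated knockout. Below 0.5 FPKM, Itgb8 was called higher with IL-4 in WT, on 3 and 19 reads, and Itga1 in the knockout, on 7 and 26 reads. None of the further subunits was called between the genotypes.

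Genes that work with integrins were counted in lists of ligands, activation and linkage to actin, signalling, lateral partners in the membrane, and transport, using members with a mean of at least 0.5 FPKM. Of 17 ligands, IL-4 gave 2 higher and 2 lower calls in WT and 3 and 1 in the knockout. Of all genes with a read, 4.91% were called higher and 7.88% lower in WT, and 5.29% and 4.03% in the knockout. These include genes with few reads, and of genes averaging 1 FPKM or more 15.5% and 11.8% were called in either direction. The ligands had median log2 ratios of -0.05 and -0.11 against -0.01 and 0.01 over all genes. After removal of the trend the WT counts were 3 and 0. Fn1, which encodes fibronectin, the ligand of Itga5 and Itga4 with Itgb1, rose from 56.1 to 213 FPKM in WT (log2 ratio 1.92) and from 47.0 to 286 FPKM in the knockout (2.60), and by 2.35 and 2.72 with the trend removed. Its receptor subunit Itga5 had ratios of -0.11 and -0.04 in the same libraries. Fibroblast markers, which could accompany Fn1, summed to 45.8, 38.9, 23.3 and 43.1 FPKM, and their part in the Fn1 values was not tested. Between genotypes and without IL-4, Thbs1 was called higher and Lamb1 and Nid1 lower in the knockout. With IL-4, Emilin1 was called higher and Vcam1 and Lamb1 lower. These are 1 and 2 of 17 each time. Over all genes, 0.839% and 0.742% were called without IL-4 and 3.05% and 0.764% with it. Of genes averaging 1 FPKM or more, 1.90% and 4.65% were called in either direction. The lower calls rested on few reads. Without IL-4, WT and the knockout had 70 and 27 for Lamb1 and 101 and 58 for Nid1. With IL-4 they had 47 and 17 for Vcam1 and 73 and 36 for Lamb1. The part of fibroblasts in these calls was not tested. These 5 genes were named after their values were seen, to account for the counts. Removal of the trend gave 2 and 2 without IL-4 and 1 and 3 with it.

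Of 26 genes of integrin activation and linkage to actin, IL-4 gave 3 higher and 9 lower calls in WT and 3 and 4 in the knockout. Over all genes with a read, 4.91% and 7.88% were called in WT and 5.29% and 4.03% in the knockout. Of genes averaging 1 FPKM or more, 15.5% and 11.8% were called in either direction. The median log2 ratios of the 26 were -0.37 and -0.21 against -0.01 and 0.01 over all genes. With the trend removed they were -0.18 and -0.21, when 3 and 6 were called in WT and 3 and 3 in the knockout. The shares of all genes were then 5.19% and 5.24% in WT and 5.16% and 4.05% in the knockout. Tln1, talin, which switches integrins on by binding the beta tail, fell from 118 to 53.0 FPKM in WT and from 119 to 74.3 FPKM in the knockout. Its transcripts measure 8560 bases and with the trend removed its ratios were -0.70 and -0.56, the latter no longer past 1.5-fold. Fyb, an adaptor of integrin activation in leukocytes, fell in both as well, to 15.8 FPKM from 35.0 in WT and to 16.6 FPKM from 34.2 in the knockout. Rassf5, an effector of Rap1 that acts on Itgal with Itgb2, had ratios of -0.79 and -0.78, called in both. In the other direction Zyx (zyxin) had ratios of 0.77 and 0.90, Tes (testin) 0.74 and 1.0, and Ilk, the integrin-linked kinase, 0.70 and 0.64, and all 3 genes were called in both genotypes. Without IL-4, 2 genes of this list were called lower in the knockout and none higher, where 0.742% and 0.839% of all genes were. The 2 lower calls rested on few reads. Fermt2 had 40 in WT and 16 in the knockout, and Parva 60 and 27. These 2 genes were named after their values were seen, to account for the count. With IL-4 none was called in either direction, where 3.05% of all genes were called higher and 0.764% lower.

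Of 23 signalling genes, IL-4 gave 0 higher and 4 lower calls in each genotype. Of all genes with a read, 7.88% were called lower in WT and 4.03% in the knockout. Among genes averaging 1 FPKM or more, a filter nearer to that of the list, 15.5% and 11.8% were called in either direction. The median log2 ratios of the 23 were -0.31 and -0.32 against -0.01 and 0.01 over all genes. With the trend removed they were -0.23 and -0.28. Ptk2b, the focal adhesion kinase relative of myeloid cells, fell from 62.7 to 26.4 FPKM in WT and from 66.9 to 27.3 FPKM in the knockout, with ratios of -1.25 and -1.29. Fgr, a Src family kinase that acts below Itgb2 in phagocytes, had ratios of -0.64 and -0.79, was called in both, and kept these calls with the trend removed. Of 12 lateral partners, 2 were called higher and 1 lower in each genotype. Of all genes, 4.91% and 7.88% were called in WT and 5.29% and 4.03% in the knockout. Cd47, which associates with integrins that hold Itgav, rose with ratios of 1.02 and 0.95, and the tetraspanin Cd151, a partner of Itga6, with ratios of 0.98 and 0.82. Cd14, a receptor for endotoxin, fell, with ratios of -1.07 and -0.88. Of 12 genes of transport none was called in any of the 4 comparisons by Fisher's exact test. Among genes averaging 1 FPKM or more, IL-4 gave calls in either direction for 15.5% in WT and 11.8% in the knockout. For knockout against WT these shares were 1.90% without IL-4 and 4.65% with it. Between genotypes 1 signalling gene was called higher with IL-4, where 3.05% of all genes were, and no lateral partner was called.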

How the data were processed

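Total RNA of 4 macrophage libraries was sequenced on an Illumina HiSeq instrument, and the authors used Bowtie for mapping to GRCm38 (mm10) and RSEM to quantify genes, per the submitters' processing notes and the paper's methods (versions and strand not given in the sources used here). Each deposited table gives expected counts, which need not be whole, the authors' FPKM (expected counts scaled to effective length and library size) and transcript length in bases. Genes not listed in a library were set to 0. RSEM divides reads between similar genes.

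Expected counts were rounded and compared between pairs of libraries by two-sided Fisher's exact tests, with Benjamini-Hochberg adjustment over all genes with a read (called at a fold above 1.5 on log2(FPKM + 0.1) and adjusted p under 0.05, the rule in the study's methods; its list of IL-4 genes used another, not applied here). Standard errors are square roots of summed reciprocals of counts plus 0.5. Differences of responses were tested by Zelen's exact test. An additive fit used edgeR 4.0.16 (TMM, filterByExpr, quasi-likelihood). The length trend was drawn by lowess (fraction 0.3) through log2 values of a library less the gene's mean, against log2 length, over genes of at least 200 bases and 1 FPKM. Subtracted, it entered an exact binomial test, Zelen's test or edgeR as an offset. Alternatives were pseudocounts of 0.01 and 1, TMM, CPM, a fold of 2, a filter of 1 FPKM, edgeR's exact test with assumed coefficients of variation of 0.1, 0.2 and 0.4, DESeq2 1.42.0, limma 3.58.1, upper-quartile scaling and no filter. The pair test, removal of the trend, Zelen's test and the edgeR fit were tested on simulated data, and the other alternatives were not.

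The members (by a rule with no measured value), gene lists, tests and alternatives were chosen with earlier results of these data known. Named were all 10 members, called subunits among the others, and up to 3 genes a list and direction called in both genotypes at a mean of at least 5 FPKM, of which 1 is not reported here. Libraries were grouped by genotype and treatment in their labels. Of 16403 gene IDs, 16365 matched a RefSeq table of GRCm38.p6.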

Additional observations from a re-analysis of the deposited data

Results flagged for a closer look

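The IL-4 responses of 3 subunits differed between the genotypes at an adjusted p under 0.05 by Zelen's exact test on the reads of the 4 libraries, which compares libraries and not mice. The difference of the log2 responses, knockout minus WT, was 0.53 for Itgav, 0.31 for Itgam and -0.05 for Itgb2. Itgav went from 12.1 to 12.4 FPKM on IL-4 in WT and from 11.4 to 16.9 FPKM in the knockout, so that the knockout library with IL-4 stood above the other 3. Itgam was listed at 68.0, 70.5, 76.5 and 98.3 FPKM in the order WT untreated, WT with IL-4, knockout untreated and knockout with IL-4. With the trend over transcript length removed the differences were 0.26 (adjusted p = 0.0984, Zelen's exact test), 0.16 (adjusted p = 0.0199) and -0.07 (adjusted p = 0.0121). Transcripts of Itgav measure 7055 bases, those of Itgam 4680 and those of Itgb2 2862. Fibroblast markers summed to 45.8, 38.9, 23.3 and 43.1 FPKM in the order given for Itgam, and their part in these differences was not tested.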

How the results depend on the processing

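With 1 library a group, no setting measures variation between mice or cultures, and leaving out a replicate was not possible. No paired analysis was possible because the labels carry no shared replicate numbers with more than 1 library a group. Of the counts of members called, 89 stayed within 1.5 times the main count and 17 did not. Many of the 89 were counts of 0 that stayed at 0. A stricter setting, such as a fold above 2, could not have changed these. For IL-4 in WT, where 1 member was called higher and 1 lower, the higher count was 2 with the length trend removed and 0 at a fold above 2 or an assumed coefficient of variation of 0.2 or 0.4, and the lower count was 0 in each of these and at a pseudocount of 1. For IL-4 in the knockout, the 2 members called higher became 0 at a fold above 2 and at a coefficient of variation of 0.2 or 0.4. In the additive fit the 3 called higher with IL-4 became 5 with the trend removed and the 3 called lower became 1 by DESeq2. For genotype the 0 called higher became 1 with upper-quartile scaling and 2 with the trend removed or by limma. The cause was not tested beyond what each setting changes by construction. Of the settings named in this paragraph, the share of all genes called was counted for removal of the trend only.

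On removal of the length trend the sign changed for Itga5 for IL-4 in WT (0.05) and in the additive fit (0.02), Itgal (-0.07), Itga4 (-0.29), Itga5 (-0.01) and Itgb1 (-0.05) for knockout against WT with IL-4, Itgax (-0.06), Itga4 (-0.11), Itga5 (-0.07) and Itgb1 (-0.04) for the difference of responses, and Itga4 (-0.24) and Itgb1 (-0.03) for genotype in the additive fit. It also changed for the ratios of Itga4 to Itgb1 (0.10 to -0.24) and of Itgal to Itgb2 (0.12 to -0.09), knockout against WT with IL-4. Itgb1 for genotype was -0.01 with upper-quartile scaling, and Itgb2 for knockout against WT with IL-4 was -0.0016 with TMM. Of the other single values 487 kept their call or moved by less than counting error, 10 gained and 15 lost a call, and 10 ratios of subunits moved by more. Leaving out alpha subunits under 1 FPKM in every library left the Itgb2 partner shares as given. At this depth Itgal, Itga4 and Itga6, with 203 to 693 reads, have counting errors of 0.08 to 0.14 on a log2 ratio.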

Other observations

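Of the 12 further integrin subunits with a read and a mean under 0.5 FPKM, Itga3 had the highest mean, 0.383 FPKM, followed by Itgb8 at 0.353. Itgb8, which pairs with Itgav in the activation of latent Tgfb1, was listed at 0.0900, 0.540, 0.230 and 0.550 FPKM in the order WT untreated, WT with IL-4, knockout untreated and knockout with IL-4, and Itga1, a collagen receptor subunit, at 0.120, 0.190, 0.10 and 0.390 FPKM. Itgae was at 0.0700 and 0.0200 FPKM in the WT libraries and at 0 in the knockout ones, and Itgb6 and Itgb2l were at 0 in all 4. These genes were named after their values were seen, and the levels rest on few reads.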
